A study of Mus musculus with 6 samples.

Results

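TRBV2, TRBV3 and TRBV4 are neighbouring variable (V) gene segments of the mouse T cell receptor β (TCR-β) locus, and their clones were followed in CD4+ T cells of the obstructed kidney and of the spleen. A clone was taken as a member when the first gene among its V hits was TRBV2, TRBV3 or TRBV4. The 3 segments were among 24 Trbv genes in the files and accounted for 58675 of 352074 clones over the 6 libraries, of which 14890 carried TRBV2, 26430 carried TRBV3 and 17355 carried TRBV4. Only 478 member clones (0.815%) listed more than 1 V gene, and 1 member clone had equal scores for its first hits.

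All 6 libraries came from 3 C57BL/6 wildtype mice of the RUUO+UUO model, with 1 kidney and 1 spleen library per mouse. In this model a removable clip blocked the right ureter between days 0 and 6 (RUUO, a reversible obstruction), the left ureter was tied off for good on day 17 (UUO), and the obstructed left kidney and the spleen were taken on day 22. No uninjured mice were analysed here, so that both organs shared the injuries and every comparison is between organs or between Trbv genes. The RNA came from CD4+ T cells sorted by FACS. For T cells of donor mice the paper describes negative selection and then CD4 microbeads for kidneys, and CD4 microbeads for spleens. Its methods do not state whether such steps preceded the sorting for these libraries. As only TCR-β mRNA was sequenced, markers of CD4+ T cells were not measured in these files.

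A TCR-β chain is built in the developing thymocyte by joining a V, a diversity (D) and a joining (J) segment. Bases are removed from the segment ends, short palindromic (P) bases may remain, and untemplated bases are added, so that the junction, the CDR3, differs from cell to cell. The CDR3 begins with the last codons of the V segment, ends with the first codons of the J segment and contacts the antigenic peptide. Joining ignores the reading frame, and a rearrangement that is out of frame or holds a stop codon gives no receptor, but it can still be transcribed in a cell whose other allele is productive.

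In the GRCm38 annotation the segments lie on chromosome 6, Trbv2 at chr6:41047556-41047995, Trbv3 at chr6:41048394-41048824 and Trbv4 at chr6:41059443-41059886, each annotated as a V segment. Older names in the annotation are Tcrb-V4 for Trbv2, Tcrb-V16 for Trbv3 and Tcrb-V10 for Trbv4. Trbv2 and Trbv3 are separated by 398 bases, and Trbv3 and Trbv4 by 10618 bases. The flanking segments are Trbv1, which ends 155670 bases before Trbv2, and Trbv5, which starts 2472 bases after Trbv4.

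Most differences described below concern the V end of the segments, which is therefore shown first. The sequences are the first 17 bases of the CDR3, 5′ to 3′, in clones without removed V bases and without P bases, and the capitals mark codon 5, the last complete codon contributed by the V segment.
TRBV2: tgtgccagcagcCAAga
TRBV3: tgtgccagcagcTTAgc
TRBV4: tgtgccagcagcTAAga

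These sequences were the most frequent ones among such clones, in 3690 of 3935 TRBV2 clones (93.8%), 730 of 851 TRBV3 clones (85.8%) and 306 of 516 TRBV4 clones (59.3%). Each clone with one of them was listed without a mismatch to the V reference of the aligner, whereas 0 of the other clones of this kind were. Counted from the first base of the CDR3, TRBV2 and TRBV4 differed by the substitution C13T alone. Codon 5 was CAA (glutamine) in TRBV2, TTA (leucine) in TRBV3 and TAA, a stop codon, in TRBV4. A junction keeps this codon of the segment when no more than 2 bases are removed from the V end.

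The libraries differed in depth between the organs. mRNA molecules were counted by unique molecular identifiers (UMIs), and coding clones, whose CDR3 is in frame and has no stop codon, held 693 to 1248 UMIs in the kidneys and 97735 to 224811 UMIs in the spleens. Each UMI was read 467 to 793 times in the kidneys and 8.53 to 21.2 times in the spleens, and the part of this difference in the results was not tested. Clones with equal V gene, J gene and CDR3 bases count as 1 clonotype. In bulk RNA, fewer cells with a V gene cannot be told apart from less TCR-β mRNA per cell. Intervals are exact Clopper-Pearson intervals at 95% confidence and, like the limits for a count of 0, cover counting error only.

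TRBV3 was the most used of the 3 segments in every library, and none of the 3 passed the adjusted threshold for a difference in UMI share between kidney and spleen. In the order of mice 1, 2 and 3, TRBV2 made up 2.20%, 5.29% and 3.03% of kidney and 3.96%, 3.89% and 3.52% of spleen coding UMIs, so that the kidneys lay on both sides of the spleens. TRBV3 made up 5.43%, 6.89% and 5.92% of kidney and 8.09%, 7.26% and 7.40% of spleen UMIs, and every kidney lay below every spleen. TRBV4 made up 2.59%, 4.57% and 3.32% of kidney and 4.50%, 4.80% and 4.46% of spleen UMIs, with the kidney of mouse 2 between the spleens, while each kidney lay below the spleen of its own mouse.

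The kidney shares rested on few molecules, namely 17 to 66 UMIs of TRBV2, 42 to 86 of TRBV3 and 20 to 57 of TRBV4 per kidney. In edgeR's quasi-likelihood test over 24 Trbv genes, the log2 kidney/spleen ratio was -0.016 (adjusted p = 0.961) for TRBV2, -0.30 (SE 0.17, adjusted p = 0.350) for TRBV3 and -0.34 (SE 0.21, adjusted p = 0.350) for TRBV4. Leaving out 1 mouse moved these ratios to between -0.45 (without mouse 2) and -0.18 (without mouse 1) for TRBV3 and between -0.61 (without mouse 2) and -0.18 (without mouse 1) for TRBV4, none of them called. Thus 0 of the 3 passed, against 4.17% of all Trbv genes tested (TRBV15, named after its values were seen). On read counts in place of UMIs the ratio of TRBV3 was -0.42 (edgeR, adjusted p = 0.0405), which is a call that the UMIs did not give. The ratio of TRBV2 turned positive with TMM normalization (0.070) and with DESeq2 (0.12).

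Counting each clonotype once gave no call either. TRBV2 made up 2.90%, 4.74% and 4.23% of kidney and 4.59%, 4.50% and 3.78% of spleen coding clonotypes. TRBV3 made up 6.42%, 8.03% and 5.71% of kidney and 8.20%, 7.42% and 7.52% of spleen clonotypes, so that kidney and spleen overlapped. TRBV4 made up 3.11%, 3.55% and 3.59% of kidney and 4.57%, 4.62% and 4.42% of spleen clonotypes, each kidney below each spleen. The log2 ratios were -0.079 (adjusted p = 0.882) for TRBV2, -0.16 (adjusted p = 0.649) for TRBV3 and -0.40 (SE 0.18, unadjusted p = 0.0247, adjusted p = 0.199) for TRBV4 in edgeR's quasi-likelihood test. The ratio of TRBV3 was -0.38 without mouse 2 and -0.076 without mouse 1, neither called. No Trbv gene passed (0% of 24), while 3 had an unadjusted p under 0.05, TRBV4 among them, and DESeq2 called 0 with 5 at an unadjusted p under 0.05.

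**Figure D1:**
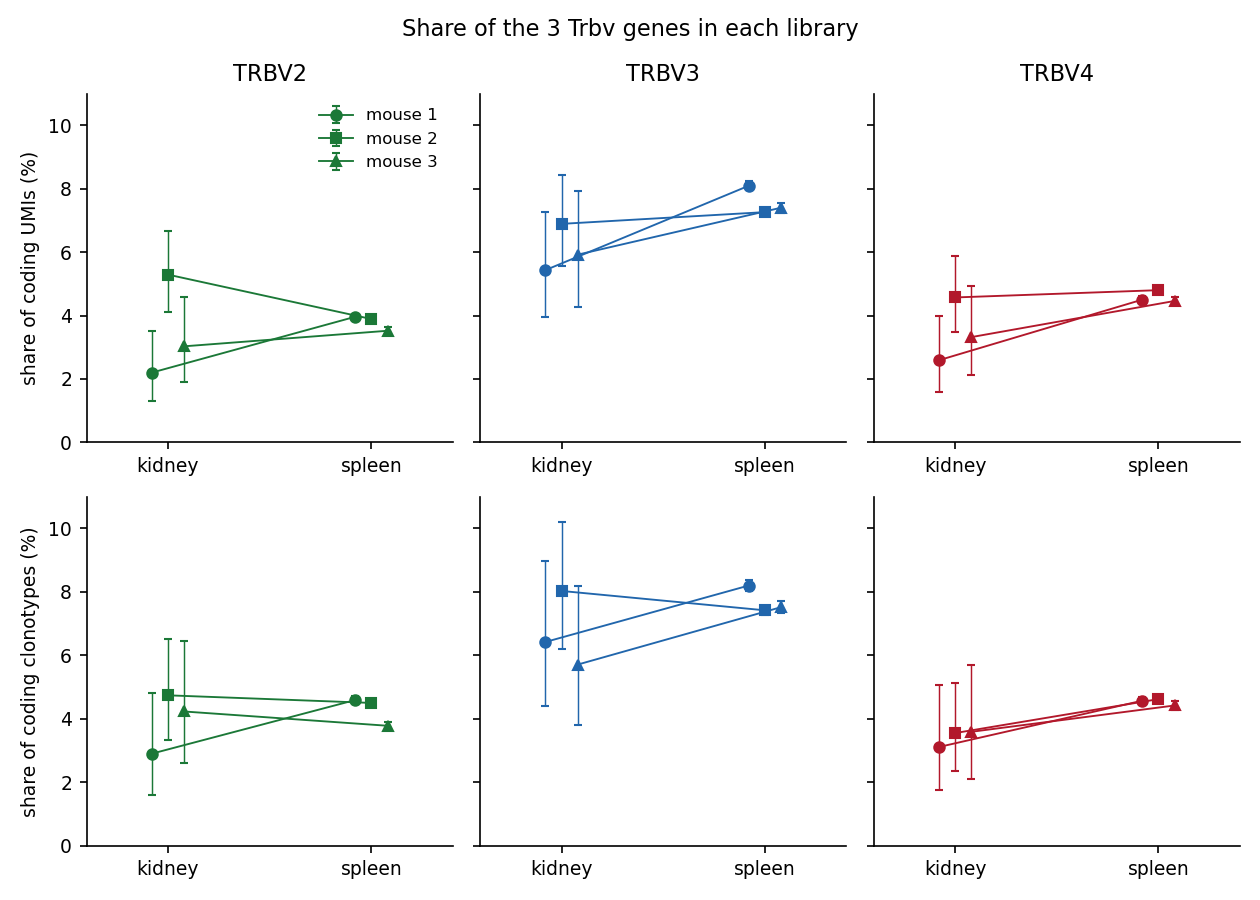
Share of TRBV2, TRBV3 and TRBV4 among coding UMIs (top, percent) and among coding clonotypes (bottom, percent) in each library. Lines join kidney and spleen of the same mouse and bars are exact 95% intervals of counting error; the kidney intervals are wide, and only TRBV3 by UMIs and TRBV4 by clonotypes have every kidney below every spleen.

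In the spleens the order of the 3 segments was TRBV3, TRBV4 and TRBV2, at 7.58% ± 0.444, 4.59% ± 0.183 and 3.79% ± 0.236 (SD, n = 3) of the coding UMIs. The ranges of the spleens did not overlap between any of the 3. Among 23 Trbv genes with at least 10 clonotypes in every spleen they ranked 6, 10 and 12 from the highest, TRBV2 being at the median. The flanking TRBV1 and TRBV5 were used more, at 12.5% ± 1.00 and 9.51% ± 0.311 (SD, n = 3), so that usage did not follow the order of the segments on the chromosome.

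Over the 6 libraries the usage of TRBV4 was the most like that of TRBV2 and also that of TRBV3. Among 15 Trbv genes with at least 10 UMIs in every library, the log2 share of TRBV4 had the highest Pearson correlation with that of TRBV2 (r = 0.884) and with that of TRBV3 (r = 0.913). The next closest was TRBV3 for TRBV2 (r = 0.722) and TRBV16 for TRBV3 (r = 0.871). These values describe 6 libraries that fall into 2 organs of very different depth, and shares of a whole are not independent.

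TRBV4 differed from TRBV2 and TRBV3 in its share of non-coding clones, those with a frameshift or with a stop codon in frame. In the spleens of mice 1, 2 and 3 non-coding clones were 3.34%, 3.16% and 4.04% of TRBV2 clones. They were 3.69%, 4.49% and 2.80% of TRBV3 clones and 13.7%, 13.9% and 12.2% of TRBV4 clones. TRBV4 thus lay far above its neighbours in each spleen, whereas TRBV2 and TRBV3 overlapped.

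Relative to the non-coding share of the other Trbv genes in the same spleens, the log2 ratio was -0.86 (adjusted p = 0.00861) for TRBV2, -0.79 (adjusted p = 0.00362) for TRBV3 and 1.2 (adjusted p = 2.68e-05) for TRBV4 in edgeR's quasi-likelihood test. All 3 passed, but so did 82.6% of the 23 Trbv genes tested, so that a difference as such does not set them apart. Their sides did differ, with TRBV2 and TRBV3 ranking 21 and 19 and TRBV4 ranking 7 of 23 from the highest share. The highest share, 75.4%, was that of TRBV24. Without clonotypes of 1 UMI the log2 ratio of TRBV3 was -0.46 (edgeR, adjusted p = 0.121).

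The excess in TRBV4 had 2 parts. Frameshifted clones were 11%, 11.5% and 9.72% of TRBV4 clones in the 3 spleens, against 3.28%, 3.06% and 3.87% for TRBV2 and 3.61%, 4.39% and 2.68% for TRBV3. Stop codons in an otherwise intact frame were found in 433 of 15396 in-frame TRBV4 clones, 2.82% ± 0.172 (SD, n = 3 spleens). For TRBV2 this share was 0.108% ± 0.0561, for TRBV3 0.101% ± 0.0211 and for the other 21 Trbv genes together 0.136% ± 0.0141 (SD, n = 3).

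Tested on its own, the in-frame stop share had a log2 ratio to the other Trbv genes of 4.4 for TRBV4 (adjusted p = 4.51e-27), of -1.44 for TRBV2 (adjusted p = 0.00164) and of -1.46 for TRBV3 (adjusted p = 5.10e-05) in edgeR's quasi-likelihood test. All 3 passed, against 77.8% of the 18 Trbv genes tested. The expected share for TRBV2 and TRBV3 includes the TRBV4 clones, and their own shares lay close to those of the other 21 genes given above. Taken over all clones, TRBV4 had the highest in-frame stop share of the 23 Trbv genes with at least 10 coding clonotypes per spleen. TRBV24 followed at 2.11%, but 73.2% of its clones were frameshifted. Among in-frame clones TRBV24 lay above TRBV4, with 17, 24 and 10 stop clones beside 217, 262 and 114 coding clonotypes in mice 1, 2 and 3. TRBV22, which had 8 to 10 coding clonotypes per spleen and was noted after its values were seen, lay higher at 3.86% ± 0.863 of all its clones, against 2.52% for TRBV4.

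**Figure D2:**
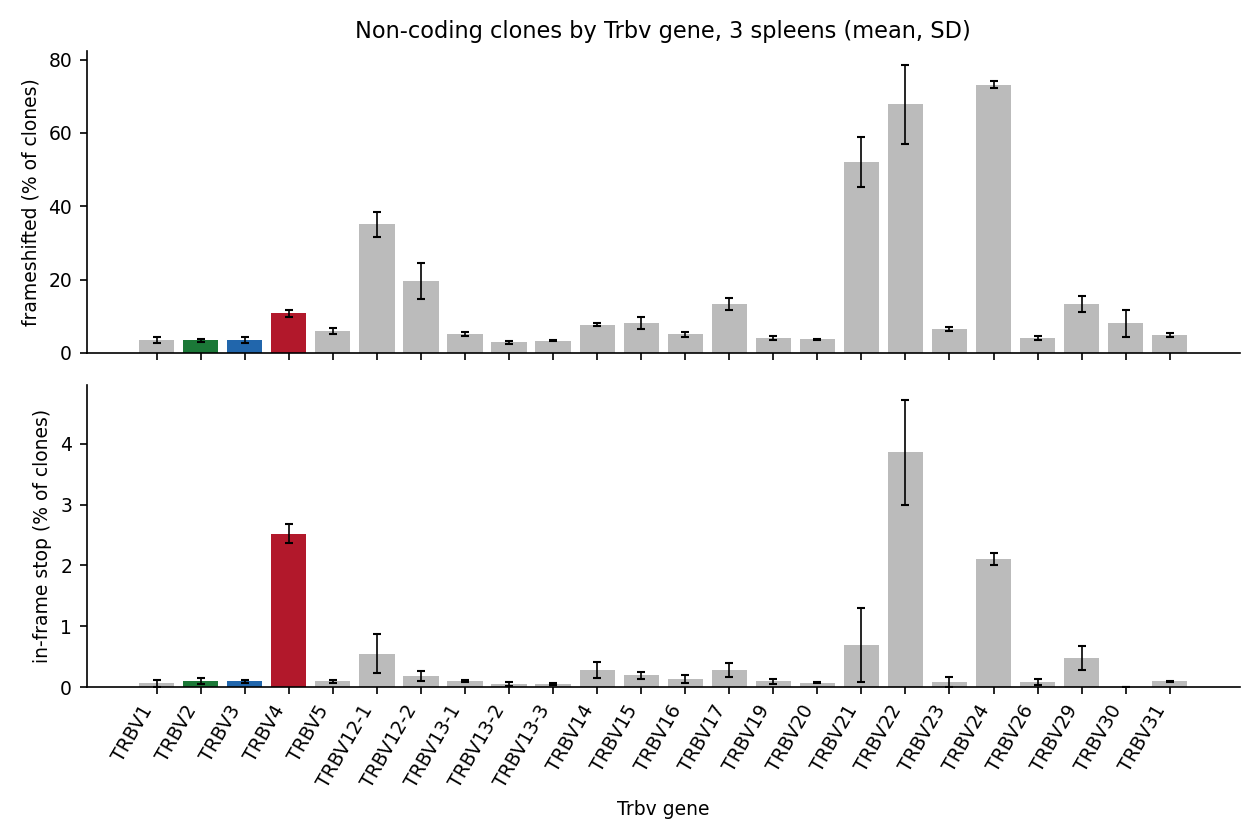
Frameshifted clones (top) and in-frame clones with a stop codon (bottom) as percent of all distinct clones of each Trbv gene, mean and SD of 3 spleens, with TRBV2 in green, TRBV3 in blue and TRBV4 in red. TRBV4 stands above its neighbours in both panels, and most other segments are near 0 in the bottom panel.

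The stop codons of TRBV4 stood almost always at the position that the germline segment fixes. In 424 of the 433 clones (97.9%) the first stop was codon 5, and in 382 clones it was TAA, in 34 TAG and in 8 TGA. By contrast, codon 5 was the first stop in 2 of 14 TRBV2 clones, 11 of 25 TRBV3 clones and 70 of 379 clones of the other segments. In 385 of the 433 TRBV4 clones (88.9%) no more than 2 V bases had been removed, which leaves the germline codon in place unless the alignment has a mismatch there.

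The number of V bases removed separated all 3 segments. The mean number of bases removed in coding clonotypes was 1.54, 1.56 and 1.46 for TRBV2 in the spleens of mice 1, 2 and 3. It was 3.14, 3.08 and 3.13 for TRBV3 and 4.46, 4.46 and 4.44 for TRBV4, with no overlap between segments. Aligned without removed bases were 45.8% ± 1.97 of TRBV2, 7.66% ± 0.134 of TRBV3 and 1.27% ± 0.116 of TRBV4 coding clonotypes (SD, n = 3). The alignment allows mismatches. Coding TRBV4 clonotypes aligned with 0 to 2 bases removed must differ from the germline stop codon, so that they do not keep the germline end.

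Compared with the other Trbv genes of the same spleen, TRBV2 lost 0.95 bases less (difference -0.95, adjusted p = 7.78e-05), TRBV3 0.75 bases more (adjusted p = 6.25e-05) and TRBV4 2.13 bases more (adjusted p = 7.30e-06) by limma. All 3 passed, as did 87.0% of the 23 Trbv genes tested. For TRBV4 this test was in part fixed in advance, because coding clonotypes cannot keep its germline stop codon. TRBV4 lost the most V bases of these 23 genes, and TRBV31 the fewest (0.975). P bases, which can remain only at an untrimmed end, were found in 19.1% ± 0.758 of TRBV2, 4.37% ± 0.186 of TRBV3 and 0.130% ± 0.0499 of TRBV4 coding clonotypes (SD, n = 3).

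Frameshifted clones, which code for no receptor, showed how the ends looked in rearrangements that gave no protein. In TRBV4, 43.1% ± 0.613 of frameshifted clones but 3.83% ± 0.542 of coding clonotypes had lost no more than 2 V bases (SD, n = 3 spleens). No base had been removed in 20.4% ± 2.31 of frameshifted TRBV4 clones and 1.27% ± 0.116 of coding ones. Instead, 33.2% ± 0.168 of coding TRBV4 clonotypes had lost 4 bases and 36.1% ± 0.600 had lost 5, against 17.8% ± 0.217 and 21.2% ± 0.574 of the frameshifted ones.

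In TRBV2 and TRBV3 the classes were closer, and in TRBV3 the coding clones had lost fewer bases. Of TRBV2 clones, 71.2% ± 1.46 of the coding and 72.4% ± 4.38 of the frameshifted ones had lost no more than 2 V bases. Of TRBV3 clones these shares were 40.7% ± 1.11 and 30.8% ± 3.83 (SD, n = 3 spleens). The mean removal in coding minus frameshifted clones was 1.41 ± 0.0856 bases in TRBV4, 0.0783 ± 0.220 in TRBV2 and -0.460 ± 0.256 in TRBV3 (SD, n = 3). Over 23 Trbv genes TRBV4 ranked highest, ahead of TRBV1 at 0.191, and this difference between the classes was described and not tested. The coding class leaves out TRBV4 clones with the germline stop codon, so that the gap of TRBV4 was in part fixed in advance.

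Among frameshifted clones alone, TRBV4 lost 0.44 bases more than the other Trbv genes (adjusted p = 0.00562), TRBV3 0.98 bases more (adjusted p = 0.000861) and TRBV2 1.23 bases less (difference -1.23, adjusted p = 0.000730) by limma. All 3 passed, against 79.2% of the 24 Trbv genes tested, and this test was chosen after seeing the data. The order of the segments was thus not the same in both classes, as TRBV3 lost the most bases of the 3 in frameshifted clones (3.57 ± 0.236) and TRBV4 in coding ones. With the in-frame stop clones included among the non-coding ones, the difference of TRBV4 was 0.069 bases (limma, adjusted p = 0.450).

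**Figure D3:**
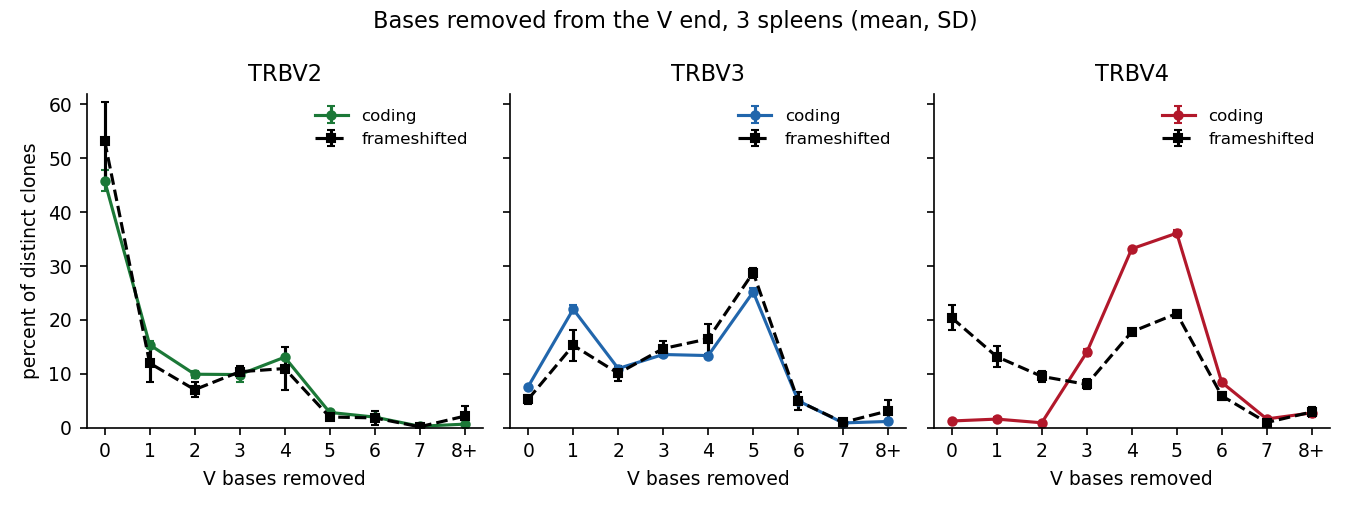
Percent of distinct clones (y axis) by the number of V bases removed (x axis, the last class being 8 or more) for TRBV2, TRBV3 and TRBV4, mean and SD of 3 spleens, for coding clonotypes (coloured, solid) and frameshifted clones (black, dashed). Both classes follow each other in TRBV2, coding TRBV3 clonotypes lie above frameshifted clones at 1 base removed (22.0% against 15.3%), and coding TRBV4 clonotypes are scarce at 0 to 2 bases removed and gather at 4 and 5.

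Codon 5 of coding clonotypes differed accordingly. Glutamine, the germline residue of TRBV2, stood there in 75.8% ± 0.665 of TRBV2 clonotypes in the spleens, and leucine, that of TRBV3, in 48.5% ± 0.933 of TRBV3 clonotypes (SD, n = 3). TRBV4 had no dominant residue, with tyrosine at 14.8% ± 0.488, leucine at 14.4% ± 0.246, serine at 13.3% ± 0.399, proline at 11.5% ± 0.213 and arginine at 11.1% ± 0.210. The tyrosine codons TAC and TAT, which keep the first 2 bases of the germline TAA, were the most frequent codons of TRBV4 at this position (1396 and 830 of 14963 clonotypes). In the kidneys glutamine was found at this position in 56 of 70 TRBV2 clonotypes and leucine in 56 of 119 TRBV3 clonotypes. Of 59 TRBV4 clonotypes in the kidneys, 10 had leucine and 9 arginine there, and tyrosine was at 8.35% ± 8.86 (SD, n = 3), so that its place as the leading residue was not seen at this small number.

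The CDR3 was longest with TRBV2 and shortest with TRBV4. Its mean length in coding clonotypes was 14.4 amino acids in each spleen for TRBV2, 13.8 for TRBV3 and 13.5 for TRBV4. The difference from the other Trbv genes was 0.54 amino acids for TRBV2 (adjusted p = 3.80e-05), -0.042 for TRBV3 (adjusted p = 0.0311) and -0.37 for TRBV4 (adjusted p = 3.80e-05) by limma. All 3 passed, against 82.6% of the 23 Trbv genes tested. TRBV2 ranked second, after its locus neighbour TRBV5 (14.5 amino acids), and TRBV4 ranked 20 of 23.

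The small difference of TRBV3 was past the threshold in the full set of spleens, but not without mouse 1 (-0.033, limma, adjusted p = 0.104) or without mouse 3 (-0.042, limma, adjusted p = 0.104). Its share of short CDR3s, of at most 12 amino acids, was lower than that of the other genes by 1.41 percentage points (13.9% against 15.4%), although its mean was lower too. TRBV2 had 7.00% of such short CDR3s and TRBV4 22.1%.

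The V part had the largest differences in TRBV2 and TRBV4. V bases contributed 1.93 ± 0.0582 bases more to the CDR3 of TRBV2 than to those of the other Trbv genes, and 1.52 fewer to that of TRBV4 (difference -1.52 ± 0.0240). In TRBV4 the stretch between V and J was longer by 0.722 ± 0.00394 bases and the J part shorter (difference -0.308 ± 0.0324). In TRBV3 the V part (-0.0339 ± 0.0517) and the stretch between V and J (0.0492 ± 0.0370) differed little from those of the other genes, and the J part was shorter in 3 of 3 mice (-0.140 ± 0.0404; SD, n = 3 for all).

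**Figure D4:**
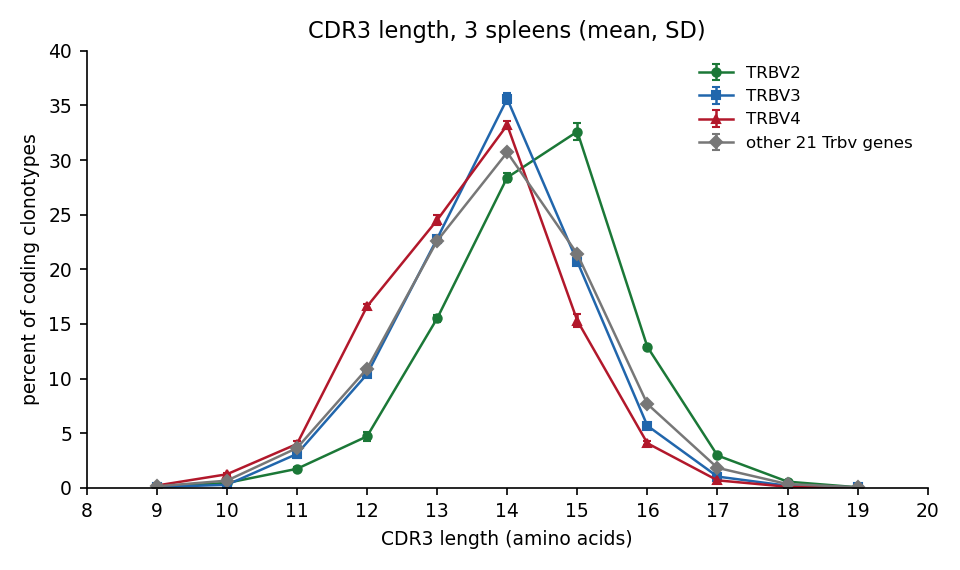
Percent of coding clonotypes (y axis) by CDR3 length in amino acids (x axis) for TRBV2, TRBV3, TRBV4 and the other 21 Trbv genes together, mean and SD of 3 spleens. TRBV2 peaks at 15 amino acids (32.6%) and the other curves at 14, and TRBV4 is raised at 12 (16.6%).

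Each segment had its own pattern of partner J segments. The mouse locus has the clusters Trbj1 and Trbj2, each with its own D and constant segment, and the files named 14 Trbj genes, 12 of which could be tested with each of the 3 segments. Pairing was expressed as observed over expected clonotypes, with the J usage of the other Trbv genes of the same spleen as expectation, and pairs were called at an adjusted p under 0.05 in edgeR's quasi-likelihood test over 270 Trbv-Trbj pairs. TRBV2 had 6 called pairs, TRBV3 10 and TRBV4 7 of 12 each. As 63.7% of all pairs were called, these counts say little about the 3 segments, and the sizes are more informative. Of the called pairs 3, 5 and 4 were above expectation (30.4% of all pairs were) and 3, 5 and 3 below (33.3% of all pairs). With limma in place of edgeR, 6, 9 and 5 pairs were called, those of TRBV4 being 2 above and 3 below, and 139 over all pairs in place of 172.

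The largest departure was the scarcity of TRBV3 with TRBJ1-6. This pair made up 1.00% ± 0.0828 of TRBV3 clonotypes, against 3.45% ± 0.210 of the clonotypes of the other Trbv genes (SD, n = 3 spleens), a log2 ratio of -1.80 (SE 0.061, edgeR, adjusted p = 1.44e-11). The opposite was measured for TRBV4, with 4.90% ± 0.206 against 3.19% ± 0.187 (log2 ratio 0.62, SE 0.050, edgeR, adjusted p = 8.27e-08). TRBV2 used TRBJ1-6 in 2.79% ± 0.107 of clonotypes, slightly below expectation (-0.25, SE 0.057, edgeR, adjusted p = 0.00162), and this pair did not pass without mouse 2 (-0.20, edgeR, adjusted p = 0.0545).

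In frameshifted clones the TRBJ1-6 shares of the 3 segments lay within 1 of their own SD from those of the other Trbv genes. For TRBV2 it was 34 of 490 clones (7.45% ± 3.09, SD, n = 3 spleens), against 4.68%, above rather than below the others. TRBJ1-6 was found in 52 of 979 frameshifted TRBV3 clones (5.48% ± 1.06, SD, n = 3 spleens), against 4.72% of those of the other Trbv genes, and in 85 of 1891 frameshifted TRBV4 clones (4.60% ± 0.419), against 4.77%. The difference between coding and frameshifted clones was not tested. In the kidneys TRBJ1-6 was found in 0 of 119 TRBV3 clonotypes and in 4 of 59 TRBV4 clonotypes. A count of 0 was taken to allow up to 3 counts, here a TRBV3 share of up to 2.52%, which is not an exact interval.

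Of the other partners, TRBV2 and TRBV3 shared a preference for TRBJ1-2, with log2 ratios of 0.47 (SE 0.047) and 0.36 (SE 0.036). They differed at TRBJ1-5, which was above expectation with TRBV2 (0.45, SE 0.058) and below it with TRBV3 (-0.56, SE 0.050). TRBV4 was found more often with TRBJ2-4 (0.41, SE 0.035) and less often with TRBJ1-4 (-0.60, SE 0.045) and TRBJ2-3 (-0.43, SE 0.040). TRBJ2-5 (0.23, SE 0.027) ranked second of the 5 called partners of TRBV3 above expectation, with TRBJ2-2 close to it (0.22, SE 0.034). TRBJ1-1 was below expectation with TRBV2 (-0.22, SE 0.042). All of these pairs passed, the highest adjusted p being 0.000374 in edgeR's quasi-likelihood test.

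**Figure D5:**
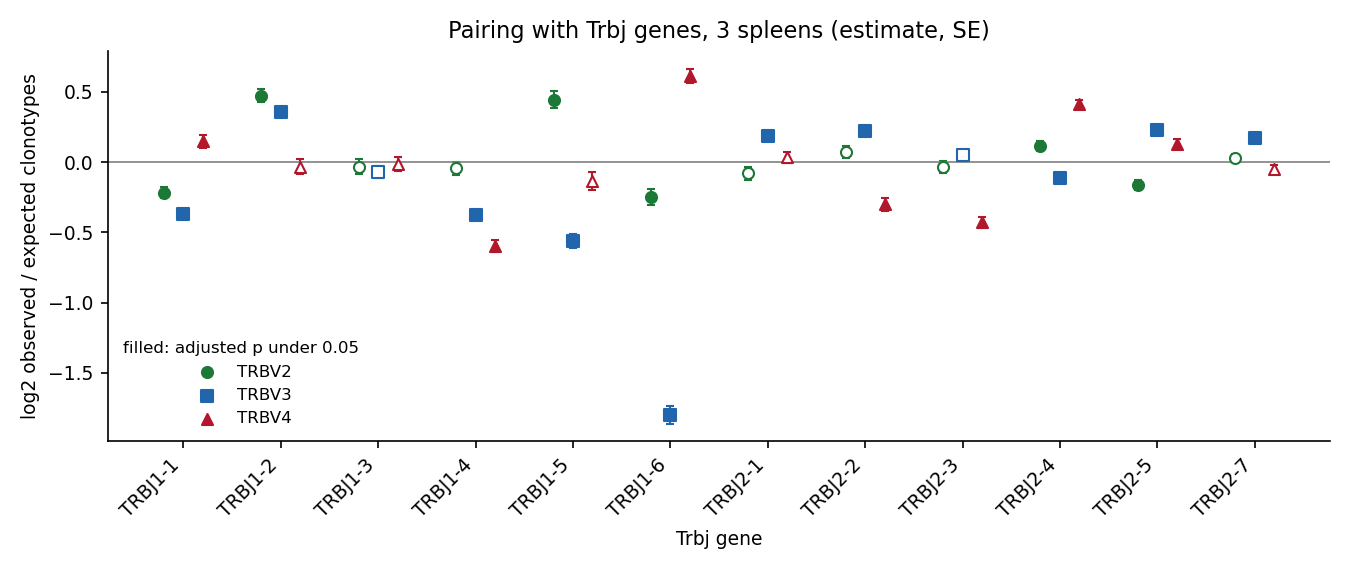
Log2 ratio of observed to expected clonotypes (y axis) for each Trbj gene (x axis) paired with TRBV2, TRBV3 or TRBV4 in 3 spleens, with standard errors and filled symbols for an adjusted p under 0.05. TRBV3 with TRBJ1-6 lies at -1.80, far from all other pairs, and TRBV4 lies above 0 there.

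TRBV3 also leaned towards the Trbj2 cluster, but not towards each of its genes. TRBJ2-1, TRBJ2-2, TRBJ2-5 and TRBJ2-7 were called above expectation with TRBV3. TRBJ2-4 was called below it (log2 ratio -0.115, edgeR, adjusted p = 0.00794), and TRBJ2-3 was not called (0.048, edgeR, adjusted p = 0.135). Trbj2 genes were used by 70.9%, 70.5% and 72.9% of TRBV3 clonotypes in the spleens, 6.27 ± 0.212 percentage points (SD, n = 3) more than by the other Trbv genes. TRBV2 (65.0% ± 1.67) and TRBV4 (65.6% ± 0.491) lay near the median Trbv gene (65.6%). TRBV3 ranked 5 of 23 from the highest Trbj2 share, which was 76.6% in TRBV30, and its difference from the other genes was not tested.

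In the kidneys, where each segment had only 14 to 61 coding clonotypes per library, the same features were measured with wide errors. The Trbj2 share of kidney minus spleen was -2.78 percentage points for TRBV2 (exact permutation test, p = 0.50), -0.116 for TRBV3 (p = 1.00) and 1.90 for TRBV4 (p = 1.00). The mean CDR3 length was 14.6, 15.0 and 14.5 amino acids in TRBV2 clonotypes of the kidneys, 0.352 above the spleens, and 13.5, 13.6 and 13.7 in those of TRBV3, 0.198 below the spleens (difference -0.198). Kidneys and spleens did not overlap in either case, and both gave an exact permutation p of 0.10, the smallest that 3 against 3 libraries allow. Paired by mouse, both gave an exact sign-flip p of 0.25, the smallest that 3 pairs allow. For TRBV4 the length was 13.0, 13.5 and 13.8 amino acids in the kidneys, around the spleens (exact permutation test, p = 0.70).

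Non-coding clones of the kidneys numbered 1, 0 and 0 for TRBV2, 5, 1 and 2 for TRBV3 and 3, 4 and 2 for TRBV4 in mice 1, 2 and 3. For TRBV2 this gave 6.67%, 0% and 0% of clones, where 0 of 36 and 0 of 20 clones have upper interval limits of 9.74% and 16.8%, and kidney minus spleen was -1.29 percentage points (exact permutation test, p = 0.60). For TRBV3 it gave 13.9%, 1.61% and 6.90%, a kidney mean of 7.47% and a difference of 3.81 points (exact permutation test, p = 0.40), which was 0.609 without mouse 1 and 7.15 without mouse 2. For TRBV4 it gave 16.7%, 12.9% and 10.5%, around the values of the spleens, and a difference of 0.0988 points (exact permutation test, p = 1.00). The kidneys thus spanned the spleens for each segment, and none of these differences passed. The removal of V bases also kept its order in the kidneys, with means of 1.36 to 1.64 bases for TRBV2, 2.90 to 3.10 for TRBV3 and 4.24 to 4.53 for TRBV4.

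Clone size was measured as UMIs per coding clonotype. In the spleens it was 1.26, 1.38 and 1.17 for TRBV2, 1.44, 1.57 and 1.23 for TRBV3 and 1.44, 1.66 and 1.26 for TRBV4. Relative to the other Trbv genes the log2 ratio was -0.18 (adjusted p = 0.0220) for TRBV2, -0.027 (adjusted p = 0.263) for TRBV3 and 0.016 (adjusted p = 0.557) for TRBV4 by limma, so that 1 of the 3 passed, against 56.5% of the 23 genes tested. TRBV2 did not pass without mouse 1 (-0.16, limma, adjusted p = 0.0645), nor when the share of clonotypes with at least 3 UMIs was compared (difference -3.93 percentage points, limma, adjusted p = 0.0592).

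The largest coding clonotype of a segment held 2 to 17 UMIs in a kidney and 10 to 202 UMIs in a spleen. Examples found in both organs are shown, 5′ to 3′, with the clonotypes found in all 3 spleens with the most UMIs, and the capitals mark bases assigned to neither the V nor the J segment.
TRBV2 with TRBJ1-6, largest in the kidney of mouse 2: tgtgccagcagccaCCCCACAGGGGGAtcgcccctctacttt
TRBV3 with TRBJ2-7, largest in the kidney of mouse 1: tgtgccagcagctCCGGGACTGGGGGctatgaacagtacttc
TRBV4 with TRBJ1-1, largest in kidney and spleen of mouse 2: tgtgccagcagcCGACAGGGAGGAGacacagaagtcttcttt
TRBV2 with TRBJ1-2, in all 3 spleens: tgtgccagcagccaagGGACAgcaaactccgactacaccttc
TRBV3 with TRBJ2-7, in all 3 spleens: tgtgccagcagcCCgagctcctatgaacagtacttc
TRBV4 with TRBJ2-4, in all 3 spleens: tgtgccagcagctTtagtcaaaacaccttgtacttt

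In mouse 2 the TRBV4 clonotype with TRBJ1-1 had 17 UMIs in the kidney, 1.36% of the library (interval 0.795% to 2.17%), and 202 UMIs in the spleen, 0.0899% (interval 0.0779% to 0.103%). It alone made up 29.8% of the TRBV4 UMIs of that kidney. The TRBV2 clonotype with TRBJ1-6 had 13 UMIs in the kidney of mouse 2 (1.04%, interval 0.556% to 1.77%) and 13 in its spleen (0.00578%). The TRBV3 clonotype had 5 UMIs in the kidney of mouse 1 (0.647%, interval 0.210% to 1.5%), and 32, 3 and 2 UMIs in the spleens of mice 1, 2 and 3. The largest TRBV2 clonotypes of the kidneys of mice 1 and 3 had 3 and 2 UMIs and were not found in the matching spleens. These clonotypes were chosen by their size in the kidney, and no test was made of their change between the organs.

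Of the kidney clonotypes of TRBV2, 5 of 14, 18 of 36 and 10 of 20 were also present in the matching spleen of that mouse, a mean of 45.2% ± 8.25 (SD, n = 3). For TRBV3 these were 19 of 31, 32 of 61 and 9 of 27 (49.0% ± 14.3), and for TRBV4 7 of 15, 14 of 27 and 11 of 17 (54.4% ± 9.29). In the spleens of the other mice 0 to 10.0% of TRBV2, 1.64% to 19.4% of TRBV3 and 0 to 6.67% of TRBV4 clonotypes were found. Each segment gave a one-sided exact permutation p of 0.17, the smallest that the 6 assignments of spleens to kidneys allow. The other 21 Trbv genes had a mean of 47.1% ± 3.97, within the range of each segment.

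Clonotypes found in all 3 spleens were rarer with TRBV2 than with its neighbours. There were 19 such TRBV2 clonotypes, 153 of TRBV3 and 77 of TRBV4, which corresponds to 0.441% ± 0.181, 1.92% ± 0.601 and 1.65% ± 0.533 (SD, n = 3) of the coding clonotypes in a spleen. The other 21 Trbv genes together had 1.39% ± 0.405. The same shared clonotypes are counted in every spleen, so that only the clonotype totals of the spleens vary. These SDs therefore show differences in those totals and not 3 separate measurements of sharing. Such shared clonotypes had fewer bases between V and J than those of a single spleen, 6.84 against 8.85 for TRBV2, 5.38 against 9.24 for TRBV3 and 4.10 against 9.86 for TRBV4. The TRBV3 example shown above had 2 bases between V and J and 51, 36 and 20 UMIs in the spleens, and 0 in the kidneys.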

How the data were processed

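TCR-β mRNA of sorted CD4+ T cells was amplified by 5′ RACE with UMIs. From the reads the authors built clones using MiXCR and deposited, per library, the UMI count and read count of each clone, not normalized. The submitters' processing notes name R 4.4.2, GRCm38 and mm10. All 24 Trbv names matched RefSeq symbols of GRCm38.p6.

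Removed V bases were read from the deposited alignment positions. Usage (at least 10 counts over the 6 libraries), J pairing (expected count of at least 10 over the spleens) and non-coding shares were tested by edgeR 4.0.16, and lengths, removed bases and clone sizes by limma 3.58.1 (R 4.3.3), over all Trbv genes or pairs with Benjamini-Hochberg adjustment and an adjusted p under 0.05. Single values were tested by exact two-sided permutation (scipy 1.17.1), and DESeq2 1.42.0 was an alternative. The edgeR fits of usage, J pairing and non-coding share and the limma fit of CDR3 length were tested on simulated data.

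Kidney and spleen of a mouse are paired by the labels. Their deviations from the organ means correlated at 0.284, 0.365 and 0.298 over 24 Trbv genes, and the fit with the mouse as a replicate block was an alternative. Named were the 3 segments, their locus neighbours, the 2 Trbv genes with the closest usage, 2 called J partners per direction, and largest clonotypes that were not tied. Members and lists were chosen with earlier results of these data known. With 3 mice per organ, the edgeR and limma p-values rest on the spread between these mice, moderated over all Trbv genes or pairs. The main usage fits do not use the pairing of kidney and spleen.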

Additional observations from a re-analysis of the deposited data

How the results depend on the processing

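Of the values that answer a comparison, 271 were kept under the alternatives run, and the others are given below. Kept means the same direction and call or, for a count of called genes or pairs, a moderate change. Such counts did move, with 139 of 270 pairs called by limma and 126 of 245 with at least 2 UMIs per clonotype, against 172 of 270. For clone size 9 genes were called without mouse 1 and 16 without mouse 3, against 13. For usage by UMIs, kidney over spleen, the log2 ratio of TRBV2 was 0.116 with DESeq2 and 0.0699 with TMM, and that of TRBV3 passed on read counts (-0.423, edgeR, adjusted p = 0.0405). The number of Trbv genes called was 2 with DESeq2, 2 with TMM, 4 on read counts and 0 with the mouse as a replicate block, against 1. With this block the ratios of TRBV2, TRBV3 and TRBV4 were -0.103, -0.309 and -0.386, none called, and the block changed no other call. By clonotypes TRBV2 was at 0.135 with at least 2 UMIs per clonotype, and TMM called 1 gene in place of 0. With at least 2 UMIs the non-coding log2 ratio of TRBV3 was -0.462, not called, and 9 Trbv genes were called in place of 19. The share of short CDR3s of TRBV3 was -1.41 percentage points from the other genes. The share of clonotypes with at least 3 UMIs was -3.93 points for TRBV2 and -0.273 for TRBV4, with 0 genes called in place of 13 (limma). The clone size of TRBV4 was -0.0218 on the log2 scale by amino acid sequence and -0.00132 without the 10 largest clonotypes. Its V end in non-coding clones differed by 0.0685 bases, not called. Its non-coding share of kidney minus spleen was -1.01 points weighted by UMIs.

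Without 1 mouse at a time, the UMI usage ratio of TRBV2 ran from -0.526 to 0.248 with 0 to 1 Trbv genes called, and its clonotype ratio from -0.236 to 0.130. In the spleens, clone size ran from -0.223 to -0.164 for TRBV2 and from -0.00385 to 0.0359 for TRBV4, the length difference of TRBV3 from -0.0508 to -0.0326, and TRBV2 with TRBJ1-6 from -0.267 to -0.204. For kidney minus spleen, the Trbj2 share ran from -0.770 to 0.645 for TRBV3 and from -3.43 to 5.56 for TRBV4, the CDR3 length of TRBV4 from -0.261 to 0.125, and the non-coding share from -3.60 to 0.0881 for TRBV2 and from -1.34 to 0.992 for TRBV4. The causes of these changes were not tested. The small kidney counts limit every comparison between organs.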
